A study of Mus musculus with 2 samples.

Results

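The 34 genes described here are 24 immediate early genes and 10 heat shock genes, chosen by name from the 32285 genes that the count tables list, and all 34 had UMIs (unique molecular identifiers, each marking 1 captured transcript) in both libraries. They were measured by droplet single-cell RNA sequencing of the 3′ ends of transcripts in mouse tumours of the colon and rectum, produced by the carcinogen azoxymethane together with the colitis-inducing agent dextran sulphate sodium. There were 2 libraries, 1 labelled STK25 wKO, from mice with a global knockout of the kinase STK25, and 1 labelled WT. For both, tumours of a group were pooled and minced, then digested with trypsin-EDTA for 20 minutes at 37 °C. The knockout allele, strain, age and sex of the mice were not given in the sources used here. The series' design text names a sort by mCherry signal that the study's methods do not describe. With 1 library per group there was no replicate check and no test. The 95% intervals below (exact Poisson for levels, exact conditional binomial for ratios) cover counting error only, not the spread between cells, mice or preparations.

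Immediate early genes are transcribed within minutes of a stimulus without new protein synthesis, largely through serum response factor and the cyclic AMP response element binding protein CREB. Many encode transcription factors (the FOS, JUN, EGR, ATF, KLF and NR4A proteins), and others encode brakes on the same response, such as the phosphatase Dusp1 and the mRNA-destabilising protein Zfp36. Heat shock genes are transcribed through heat shock factor HSF1 when proteins unfold, and their products are chaperones. Both groups are known to be induced by enzymatic dissociation of tissue as well as by stimuli in living tissue. No undissociated tumour was measured here, so expression in the tumour and expression induced by dissociation cannot be told apart in any value below.

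The promoters of the heat shock genes show the sequence by which HSF1 is known to bind, and they are printed because the heat shock results below turn on these genes. Promoter sequence from RefSeq (GRCm38.p6) was matched for 27 of the 34 members, 19 of 24 immediate early and 8 of 10 heat shock genes. The others were Fosl1, Egr1, Egr3, Ier2, Myc, Hsp90aa1 and Hspa8. The 250 bases before each start were searched on both strands. In the stretches below, all 5′ to 3′ in the direction of the gene, capitals mark the heat shock element, searched as GAANNTTC or TTCNNGAA, forms that may overlap each other. Stretches end at the base before the start, apart from those of Hsph1 and Hspe1, which are 30 bases around the element.
Hspa1a (chr17:34972157-34972331, minus strand): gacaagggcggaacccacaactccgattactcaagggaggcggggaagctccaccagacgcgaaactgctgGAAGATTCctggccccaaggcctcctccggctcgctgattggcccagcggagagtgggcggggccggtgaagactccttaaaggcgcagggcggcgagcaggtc
Hspa1b (chr17:34959239-34959413, minus strand): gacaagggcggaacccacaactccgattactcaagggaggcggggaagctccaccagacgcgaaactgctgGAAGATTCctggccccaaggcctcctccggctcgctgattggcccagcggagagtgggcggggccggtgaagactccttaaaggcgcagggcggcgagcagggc
Hspb1 (chr5:135887744-135887918, plus strand): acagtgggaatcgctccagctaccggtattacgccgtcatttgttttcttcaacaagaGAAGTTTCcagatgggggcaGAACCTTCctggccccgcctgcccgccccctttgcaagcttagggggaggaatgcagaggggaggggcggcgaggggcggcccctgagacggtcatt
Hsph1 (chr5:149636351-149636380, minus strand): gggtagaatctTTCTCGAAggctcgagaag
Hspe1 (chr1:55088053-55088082, plus strand): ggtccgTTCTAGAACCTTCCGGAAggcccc

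The element was present in 6 of the 8 heat shock promoters (Dnaja1, Hspa1a, Hspa1b, Hspb1, Hspe1 and Hsph1), against 12.9% of the 27018 mouse promoters searched in the same way. It was present in 2 of the 19 immediate early promoters (Fosl2 and Jun). Hspb1 and Hspe1 held more than 1 match. The promoters of Hspa1a and Hspa1b, neighbouring copies on chromosome 17, were identical at 247 of 250 bases. Their annotated transcripts were identical at 84.4% of aligned positions, and at 50.2% over the last 300 bases. How reads were assigned between the copies was not tested, and their sum is given beside the single values. For the immediate early genes, capitals in the next stretches mark the cyclic AMP response element TGACGTCA (Dusp1 and Btg2) and the serum response element, searched by its usual consensus (Zfp36, as a site of 30 bases). The stretch of Dusp1 ends 48 bases before the start.
Dusp1 (chr17:26508520-26508647, minus strand): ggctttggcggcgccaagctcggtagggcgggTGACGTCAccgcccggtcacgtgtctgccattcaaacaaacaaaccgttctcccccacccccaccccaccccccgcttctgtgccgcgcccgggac
Btg2 (chr1:134079156-134079330, minus strand): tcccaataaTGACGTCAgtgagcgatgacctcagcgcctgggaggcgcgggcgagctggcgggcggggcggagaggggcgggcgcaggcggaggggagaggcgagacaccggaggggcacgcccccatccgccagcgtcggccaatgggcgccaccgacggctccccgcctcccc
Zfp36 (chr7:28379267-28379296, minus strand): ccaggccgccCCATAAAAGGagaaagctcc

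The cyclic AMP response element was present in 2 of the 19 immediate early promoters and in 1.63% of all promoters. The serum response element was present in 1 of 19, against 1.40% of all. The AP-1 element TGANTCA, to which FOS and JUN dimers are known to bind, was present in none of the 19 and none of the 8, against 6.87% of all promoters. These are letters found in a window, not sites shown to be bound. The median GC content of the windows was 66.4% for the immediate early and 63.6% for the heat shock genes, against 52% for all.

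After filtering, 13883 cells remained in the library labelled STK25 wKO (median 2091 UMIs per cell) and 12270 in the library labelled WT (median 1383). The libraries shared 230 barcodes. Levels are given as CPM, UMIs of a gene per 1000000 UMIs of the same cells, and all log2 ratios are STK25 wKO over WT. Stk25 was at 127 CPM in the library labelled STK25 wKO and 118 CPM in the library labelled WT (log2 ratio 0.11, 0.05 to 0.16). No source used here says which part of the gene was deleted, so these 3′ counts do not check the labels. Clusters were named only by marker genes, so that "B cells" stands for B-like clusters and so on, and 10 classes had at least 50 cells in both libraries. There were 4378 STK25 wKO-labelled and 2335 WT-labelled epithelial cells, 1432 and 3935 T or NK cells, 671 and 1685 B cells, 1624 and 222 neutrophils, and, as the smallest class, 163 and 89 pericytes or smooth muscle cells, in the same order of libraries. Clusters 11 (1999 and 189 cells) and 12 (161 and 1904 cells) stood apart by library and by their low depth, with medians between 674 and 884 UMIs, stayed unnamed and are kept out of the classes.

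Summed over the 24 genes, immediate early transcripts were higher in the library labelled STK25 wKO in the leukocytes and in pericytes or smooth muscle cells, and slightly lower in the epithelium. The sum was 10091 CPM in STK25 wKO-labelled and 5627 CPM in WT-labelled T or NK cells (log2 ratio 0.84, 0.82 to 0.86). It was 7371 CPM in STK25 wKO-labelled and 4085 CPM in WT-labelled B cells (log2 ratio 0.85, 0.80 to 0.90). It was 9619 CPM in STK25 wKO-labelled and 5845 CPM in WT-labelled dendritic cells (log2 ratio 0.72, 0.67 to 0.77), and 22556 CPM in STK25 wKO-labelled and 15109 CPM in WT-labelled pericytes or smooth muscle cells (log2 ratio 0.58, 0.53 to 0.63). In macrophages or monocytes it was 13464 CPM with the STK25 wKO label and 9609 CPM with the WT label (0.49, 0.45 to 0.52), and in neutrophils 16588 CPM with the STK25 wKO label and 13810.0 CPM with the WT label (0.26, 0.22 to 0.31). Those 6 classes were above 0. The T or NK class came mainly from cluster 13 in the library labelled STK25 wKO and from clusters 14 and 20 in the library labelled WT, which the values by cluster further on take up. The B cells of the libraries also came mostly from different clusters once clustering was finer (resolution 2): cluster 25 held 286 STK25 wKO-labelled and 18 WT-labelled cells, cluster 11 held 65 and 1445, and cluster 32 held 324 and 223, in the same order of libraries. Within cluster 32 the ratio was 0.76 (0.68 to 0.84), and within cluster 11 it was 0.63 (0.49 to 0.78). Neutrophils were split unevenly at that finer clustering too. There cluster 0, led by Ngp and Retnlg, held 852 STK25 wKO-labelled and 31 WT-labelled cells. Cluster 26, led by Ankrd33b and Hdc, held 774 and 193. Neutrophil ratios, of the sums and of single genes, were not read within these clusters. Goblet cells were below 0, at 5964 CPM with the STK25 wKO label and 7663 CPM with the WT label (−0.36, −0.39 to −0.33). So were epithelial cells, at 5774 CPM with the STK25 wKO label and 6283 CPM with the WT label (−0.12, −0.13 to −0.11). Endothelial cells (−0.07, −0.09 to −0.04) and fibroblasts (−0.01, −0.03 to 0.01) were close to 0. The directions in epithelial and endothelial cells depended on the weighting: with every cell counted alike the ratios were 0.035 and 0.17, and with cells thinned to 1000 UMIs they were 0.038 and 0.087. Goblet cells were at 0.0016 with every cell counted alike.

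The heat shock sum over 10 genes was below 0 in 8 of 10 classes, with intervals below 0 in 5. It was 5494 CPM in STK25 wKO-labelled and 7590.1 CPM in WT-labelled macrophages or monocytes (log2 ratio −0.47, −0.50 to −0.43). It was 3533 CPM in STK25 wKO-labelled and 4729 CPM in WT-labelled goblet cells (log2 ratio −0.42, −0.46 to −0.38). In neutrophils it was 2172 CPM with the STK25 wKO label and 2629 CPM with the WT label (−0.28, −0.38 to −0.17). The goblet ratio depended on the processing, at −0.27 with the finer clustering, −0.28 with cells thinned to 1000 UMIs and −0.29 under a stricter cell filter. With epithelial RNA subtracted it was −0.91, a value that cannot be read as a correction. Goblet cells are themselves epithelial, with the 13 epithelial markers at 61.9% (STK25 wKO label) and 49.9% (WT label) of their epithelial level. The subtraction can therefore take off their own RNA. Epithelial cells had 4160.3 CPM with the STK25 wKO label and 4743 CPM with the WT label (−0.19, −0.20 to −0.18). B cells had 5851 CPM with the STK25 wKO label and 6322 CPM with the WT label (−0.11, −0.16 to −0.07). Dendritic cells (−0.02), endothelial cells (−0.01) and fibroblasts (−0.01) had intervals that included 0. Above 0 were pericytes or smooth muscle cells, at 7897 CPM with the STK25 wKO label and 6855 CPM with the WT label (0.20, 0.12 to 0.29). T or NK cells were above 0 too, at 8033 CPM with the STK25 wKO label and 7328 CPM with the WT label (0.13, 0.11 to 0.16). In macrophages or monocytes, neutrophils and B cells the 2 sums had opposite signs, with both intervals clear of 0. Macrophages or monocytes too were split unevenly at the finer clustering. There cluster 8, led by Chil3 and Ccl24, held 680 STK25 wKO-labelled and 110 WT-labelled cells, and cluster 13, led by C1qc and C1qa, held 464 and 216. The immediate early ratio was 0.33 within each, and the heat shock ratio was −0.48 in cluster 8 and −0.46 in cluster 13. B cells of cluster 32 had a heat shock ratio of −0.42, and those of cluster 11 had 0.06 (−0.08 to 0.20). In the library labelled STK25 wKO, T or NK cells and pericytes or smooth muscle cells carried the highest heat shock levels of the 10 classes. Their intervals overlapped, at 7931 to 8136 CPM and 7659 to 8141 CPM in that order.

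**Figure D1:**
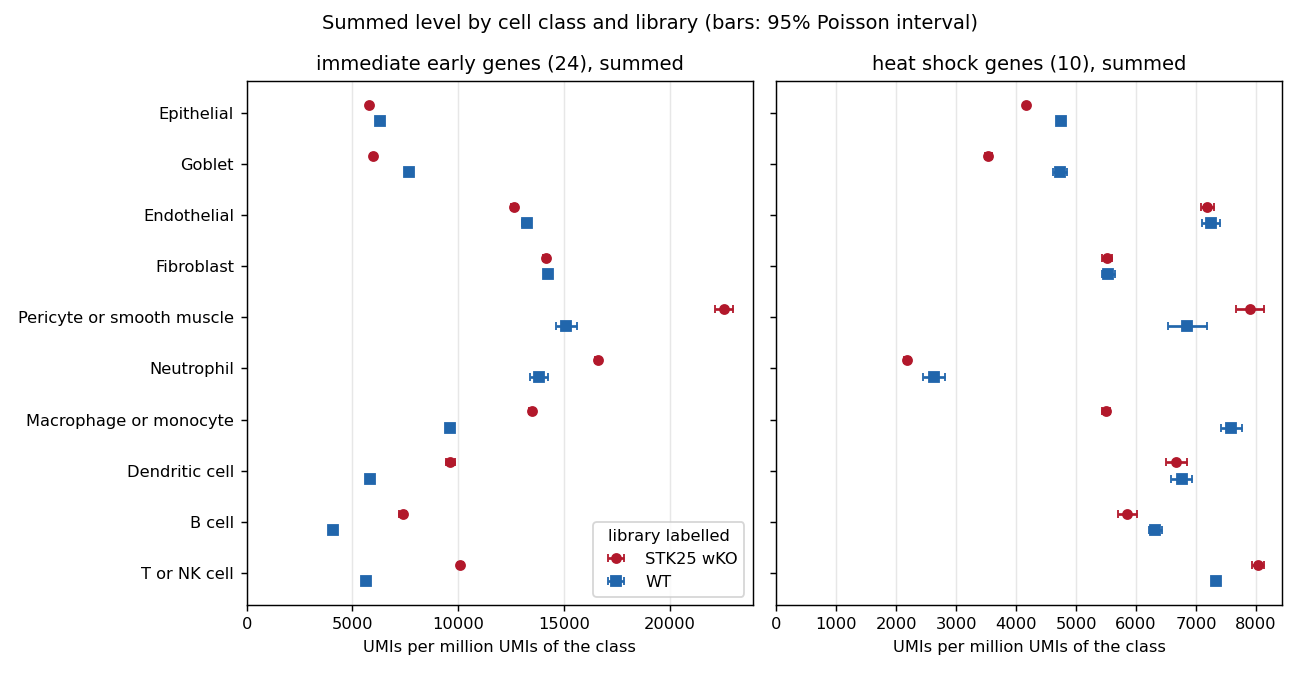
Summed level of the 24 immediate early genes (left) and the 10 heat shock genes (right) in CPM of each class. Red circles are the library labelled STK25 wKO, blue squares the library labelled WT, and bars are 95% Poisson intervals. The immediate early sum of T or NK cells sits at 10091 against 5627, and the heat shock sum of macrophages or monocytes at 5494 against 7590.1.

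The number of single members past a log2 ratio of 1, among those with at least 50 UMIs in the class over both libraries, was set beside the share of all genes that did the same. In B cells 7 of 32 members were higher by that much (Junb, Egr3, Ier3, Dusp1, Zfp36, Klf2 and Myc) and none lower, against 2.48% of all genes higher and 2.55% lower. In T or NK cells 5 of 33 were higher (Jund, Ier3, Dusp1, Zfp36 and Nr4a1) and none lower (3.73% and 5.39% of all genes). This count is of a class with different clusters in the 2 libraries. Within clusters 13, 14 and 15, 1, 1 and 2 of 21 immediate early genes were higher by that much, against 2.78%, 2.99% and 4.39% of all genes. In dendritic cells 4 of 30 were higher (Junb, Dusp1, Zfp36 and Klf4) and 1 lower (Hsph1), against 2.84% and 10.7%. In pericytes or smooth muscle cells 3 of 29 were higher (Ier3, Atf3 and Dusp1) and none lower (4.47% and 4.6%). All of the higher members in these 4 classes were immediate early genes.

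Macrophages or monocytes had 3 of 34 members higher (Egr3, Ier3 and Dusp1), against 3.61% of all genes, and 3 lower, all heat shock genes (Dnajb1, Hspb1 and Hsph1), against 5.52%. Neutrophils had Fosl1 and Klf2 higher and Nr4a2 lower of 32, near the background of 9.54% and 10.5%. In goblet cells 6 of 31 were lower (Fosb, Fosl1, Nr4a2, Hspa1a, Hspa1b and Hsph1) and none higher, against 4.45% and 2.4%. Epithelial cells (34 tested, background 2.03% higher and 2.71% lower), endothelial cells (32 tested, 2.53% and 2.15%) and fibroblasts (32 tested, 2.5% and 1.28%) had no member past a log2 ratio of 1. Over all cells Ier3 was higher and Hsph1 lower (2.96% and 5.94%). The median log2 ratio of the immediate early genes was 0.90 in B cells and 0.74 in T or NK cells, where the median of all genes tested was 0.00 in both. It was −0.17 in epithelial cells, against −0.13 for all genes. The median of the heat shock genes was −0.78 in macrophages or monocytes (all genes −0.11), −0.60 in goblet cells (−0.17) and −0.42 in epithelial cells.

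**Figure D2:**
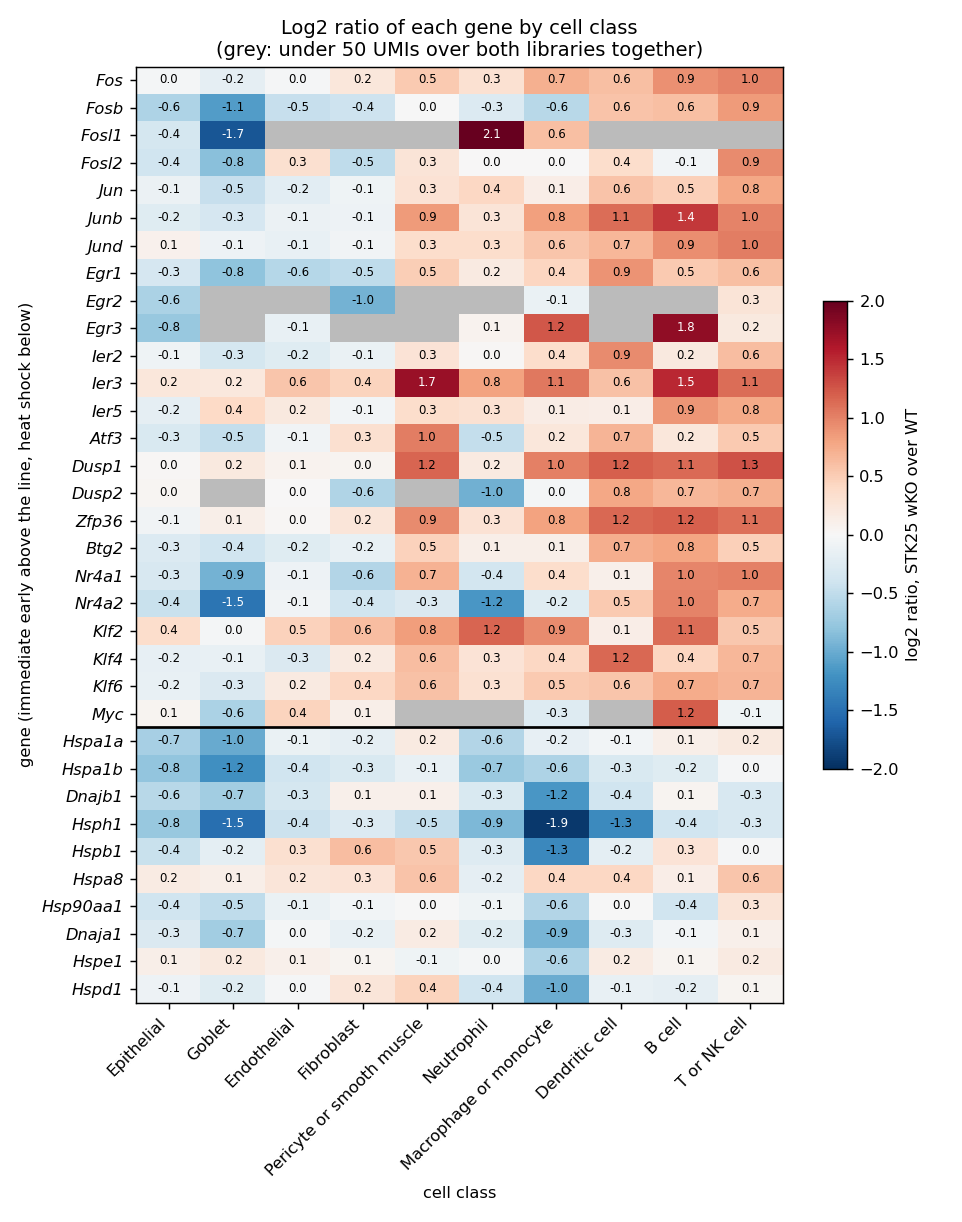
Log2 ratio of each of the 34 genes in the 10 classes, immediate early genes above the line and heat shock genes below; red is higher and blue lower in the library labelled STK25 wKO, and grey cells had under 50 UMIs over both libraries. Red prevails among the immediate early genes of pericytes or smooth muscle cells and leukocytes, while Hsph1 is blue in all 10 classes, down to −1.92 in macrophages or monocytes.

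Of the FOS family, whose proteins pair with JUN proteins to form AP-1, Fos itself was highest in pericytes or smooth muscle cells in both libraries, at 3415 CPM with the STK25 wKO label and 2369 CPM with the WT label (0.53, 0.39 to 0.66). In T or NK cells Fos was at 974 CPM with the STK25 wKO label and 489 CPM with the WT label (0.99, 0.92 to 1.07), just under a ratio of 1. That class held different clusters in the 2 libraries, so its single-gene ratios here and below include this mix. Within clusters 13, 14 and 15 Fos was at 1048, 755 and 853 CPM with the STK25 wKO label and 724, 442 and 476 CPM with the WT label. B cells had 853 CPM with the STK25 wKO label and 452 CPM with the WT label (0.92, 0.78 to 1.06). In macrophages or monocytes it was 1630.0 CPM with the STK25 wKO label and 999 CPM with the WT label (0.71, 0.61 to 0.81). Epithelial cells had almost the same level in both libraries, 687 CPM in STK25 wKO-labelled and 707 CPM in WT-labelled epithelial cells. Fosb did not follow Fos everywhere. It was lower in the library labelled STK25 wKO in 7 of the 10 classes, with intervals below 0 in 5. Its level was 226 CPM in STK25 wKO-labelled and 489 CPM in WT-labelled goblet cells (log2 ratio −1.11, −1.26 to −0.97), and 142 CPM in STK25 wKO-labelled and 218 CPM in WT-labelled epithelial cells (log2 ratio −0.61, −0.67 to −0.56). T or NK cells had more of it, 289 CPM with the STK25 wKO label and 159.6 CPM with the WT label (0.86, 0.72 to 0.99).

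Fosl1, a FOS relative induced later than Fos, was scarce in most classes and had under 50 UMIs in 6 of them. In neutrophils it was 146 CPM in STK25 wKO-labelled and 33.7 CPM in WT-labelled neutrophils (log2 ratio 2.12, 1.23 to 3.19), resting on few WT-labelled cells. In goblet cells the order was the opposite, 8.59 CPM in STK25 wKO-labelled and 28.1 CPM in WT-labelled goblet cells. Fosl2, the fourth FOS protein, was most abundant in neutrophils, at 226 CPM in STK25 wKO-labelled and 226 CPM in WT-labelled neutrophils. In T or NK cells it was 159 CPM with the STK25 wKO label and 82.5 CPM with the WT label (0.94, 0.76 to 1.13).

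The JUN proteins form AP-1 with each other or with FOS proteins. Jun was highest in pericytes or smooth muscle cells and fibroblasts, at 1934 CPM in STK25 wKO-labelled and 2043 CPM in WT-labelled fibroblasts. In T or NK cells Jun was 1188 CPM with the STK25 wKO label and 698 CPM with the WT label (0.77, 0.70 to 0.83). The libraries were closer within clusters. In clusters 13, 14 and 15 Jun was at 1353, 801 and 855 CPM with the STK25 wKO label and 1041, 601 and 699 CPM with the WT label. Junb, which restrains Jun in many settings, had its highest level in neutrophils, 2199 CPM in STK25 wKO-labelled and 1841 CPM in WT-labelled neutrophils. In B cells it was 616 CPM with the STK25 wKO label and 232 CPM with the WT label (1.41, 1.23 to 1.59), and in dendritic cells 919.7 CPM with the STK25 wKO label and 423 CPM with the WT label (1.12, 0.94 to 1.303). T or NK cells had 1211 CPM with the STK25 wKO label and 607 CPM with the WT label (0.998, 0.93 to 1.06), at the edge of a ratio of 1 but not past it. Jund, the family member with the steadiest expression, was 1447 CPM in STK25 wKO-labelled and 711 CPM in WT-labelled T or NK cells (log2 ratio 1.03, 0.96 to 1.09). It was nearly equal in epithelial cells, at 884 CPM in STK25 wKO-labelled and 835 CPM in WT-labelled epithelial cells. All 3 JUN genes were above 0 in the same 6 classes: the 5 leukocyte classes and the pericytes or smooth muscle cells.

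The EGR genes encode zinc finger factors that respond to growth factor and antigen receptor signals. Egr1 was highest in the stroma, where its ratios differed in sign. It was 851 CPM in STK25 wKO-labelled and 1214 CPM in WT-labelled fibroblasts (log2 ratio −0.51, −0.60 to −0.43), but 1234 CPM in STK25 wKO-labelled and 873 CPM in WT-labelled pericytes or smooth muscle cells (log2 ratio 0.50, 0.28 to 0.73). In endothelial cells it was 575 CPM with the STK25 wKO label and 858 CPM with the WT label (−0.58, −0.69 to −0.46). The endothelial clusters were unlike in this. Egr1 was at 416 CPM with the STK25 wKO label and 1023 CPM with the WT label in cluster 16. In cluster 19 it was at 647 and 733 CPM in the same order. Egr2 was scarce, with at most 37.6 CPM in STK25 wKO-labelled and 41.2 CPM in WT-labelled macrophages or monocytes. Egr3, known as an early gene of antigen receptor signalling, was 61.2 CPM in STK25 wKO-labelled and 17.9 CPM in WT-labelled B cells (log2 ratio 1.77, 1.13 to 2.44), against 11.2 CPM in STK25 wKO-labelled and 9.87 CPM in WT-labelled T or NK cells. In macrophages or monocytes Egr3 exceeded the ratio of 1 at a level of 14.7 CPM in STK25 wKO-labelled and 6.19 CPM in WT-labelled macrophages or monocytes (0.04 to 2.75), on 67 UMIs.

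Of the IER genes, Ier3, which protects cells from death in inflammation, was higher with the STK25 wKO label in all 10 classes. It was 1431 CPM in STK25 wKO-labelled and 818 CPM in WT-labelled neutrophils (log2 ratio 0.81, 0.62 to 0.999). It was 923 CPM in STK25 wKO-labelled and 444 CPM in WT-labelled macrophages or monocytes (log2 ratio 1.06, 0.91 to 1.20), and 435 CPM in STK25 wKO-labelled and 132 CPM in WT-labelled pericytes or smooth muscle cells (log2 ratio 1.73, 1.19 to 2.30). The lymphocytes had far less of it, 121 CPM in STK25 wKO-labelled and 42.8 CPM in WT-labelled B cells and 88.9 CPM in STK25 wKO-labelled and 41.2 CPM in WT-labelled T or NK cells. In epithelial cells the ratio was smaller, 178 CPM with the STK25 wKO label and 152 CPM with the WT label (0.23, 0.17 to 0.29). Ier2 was most abundant in fibroblasts, 681 CPM in STK25 wKO-labelled and 744 CPM in WT-labelled fibroblasts, and was higher in dendritic cells, at 266 CPM with the STK25 wKO label and 138 CPM with the WT label (0.95, 0.62 to 1.28). Ier5, which is known to act on HSF1, had its highest level in neutrophils, 374 CPM in STK25 wKO-labelled and 303 CPM in WT-labelled neutrophils, and was 127 CPM in STK25 wKO-labelled and 68.9 CPM in WT-labelled B cells (log2 ratio 0.88, 0.51 to 1.25).

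The genes that brake the response were among those with the largest differences. Dusp1, the phosphatase that switches off p38 and JNK, was above 0 in all 10 classes, from 0.03 in epithelial cells (−0.03 to 0.08) to 1.28 in T or NK cells. Its level was 583 CPM in STK25 wKO-labelled and 241 CPM in WT-labelled T or NK cells, 247 CPM in STK25 wKO-labelled and 112 CPM in WT-labelled B cells, and 1104 CPM in STK25 wKO-labelled and 546 CPM in WT-labelled macrophages or monocytes. Zfp36, which shortens the life of cytokine mRNAs, was 1222 CPM in STK25 wKO-labelled and 548 CPM in WT-labelled dendritic cells (log2 ratio 1.16, 0.998 to 1.32). It was 416 CPM in STK25 wKO-labelled and 181 CPM in WT-labelled B cells (log2 ratio 1.20, 0.99 to 1.42). Its highest level was in neutrophils, 1941 CPM in STK25 wKO-labelled and 1585 CPM in WT-labelled neutrophils, and it was nearly equal in endothelial cells, 938 CPM in STK25 wKO-labelled and 923 CPM in WT-labelled endothelial cells. Dusp1 and Zfp36 are 2 of the genes whose promoters carry the elements printed above.

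Atf3, a stress-induced repressor, was 1743 CPM in STK25 wKO-labelled and 861 CPM in WT-labelled pericytes or smooth muscle cells (log2 ratio 1.02, 0.80 to 1.24), but lower in neutrophils, at 456 CPM with the STK25 wKO label and 633 CPM with the WT label (−0.47, −0.69 to −0.25). Epithelial cells had 431 CPM with the STK25 wKO label and 530.3 CPM with the WT label (−0.30, −0.33 to −0.27). Btg2, an antiproliferative gene whose promoter is also shown, was 853 CPM in STK25 wKO-labelled and 516 CPM in WT-labelled dendritic cells (log2 ratio 0.73, 0.55 to 0.90). It was 358 CPM in STK25 wKO-labelled and 432 CPM in WT-labelled epithelial cells (log2 ratio −0.27, −0.31 to −0.23). Dusp2, a phosphatase largely of immune cells, was at 193 CPM in STK25 wKO-labelled and 113 CPM in WT-labelled dendritic cells and 2.52 CPM in STK25 wKO-labelled and 2.44 CPM in WT-labelled epithelial cells. In neutrophils Dusp2 was lower, at 86.3 CPM with the STK25 wKO label and 168 CPM with the WT label (−0.96, −1.40 to −0.50).

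The nuclear receptors split by cell type. Nr4a1, a reporter of antigen receptor signalling in lymphocytes, was 509 CPM in STK25 wKO-labelled and 253 CPM in WT-labelled T or NK cells (log2 ratio 1.01, 0.91 to 1.11). It was 483 CPM in STK25 wKO-labelled and 247 CPM in WT-labelled B cells (log2 ratio 0.97, 0.78 to 1.16). In goblet cells it was lower, at 137 CPM with the STK25 wKO label and 264 CPM with the WT label (−0.95, −1.14 to −0.75). Fibroblasts had 180.1 CPM with the STK25 wKO label and 271 CPM with the WT label (−0.59, −0.77 to −0.41). Nr4a2 was 187 CPM in STK25 wKO-labelled and 112 CPM in WT-labelled T or NK cells (log2 ratio 0.74, 0.57 to 0.90). Goblet cells had less with the STK25 wKO label, 32.9 CPM with the STK25 wKO label and 91 CPM with the WT label (−1.47, −1.83 to −1.10), and so did neutrophils, 31.6 CPM with the STK25 wKO label and 70.7 CPM with the WT label (−1.16, −1.84 to −0.42). Both genes were above 0 in lymphocytes and dendritic cells and below 0 in epithelial cells, goblet cells, endothelial cells, fibroblasts and neutrophils.

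Klf2, a factor of quiescent lymphocytes and of endothelium under flow, was higher with the STK25 wKO label in 9 of 10 classes. It was 1189 CPM in STK25 wKO-labelled and 532 CPM in WT-labelled neutrophils (log2 ratio 1.16, 0.93 to 1.40). It was 665 CPM in STK25 wKO-labelled and 305 CPM in WT-labelled B cells (log2 ratio 1.12, 0.96 to 1.29), and 1164 CPM in STK25 wKO-labelled and 842 CPM in WT-labelled endothelial cells (log2 ratio 0.47, 0.36 to 0.57). Goblet cells were the exception, at 180.2 CPM in STK25 wKO-labelled and 184 CPM in WT-labelled goblet cells. Klf4, an epithelial and vascular factor, was 109 CPM in STK25 wKO-labelled and 49.1 CPM in WT-labelled dendritic cells (log2 ratio 1.15, 0.61 to 1.72). It was 165 CPM in STK25 wKO-labelled and 184 CPM in WT-labelled epithelial cells (log2 ratio −0.16, −0.22 to −0.10). Klf6, an injury-response factor, differed 2.83-fold between its highest and lowest class in the library labelled STK25 wKO, and was 635 CPM in STK25 wKO-labelled and 394 CPM in WT-labelled T or NK cells (log2 ratio 0.69, 0.60 to 0.77). Myc, the growth regulator that is also a Wnt target in colorectal tumours, was 104 CPM in STK25 wKO-labelled and 45 CPM in WT-labelled B cells (log2 ratio 1.21, 0.77 to 1.65). It was nearly equal in epithelial cells and T or NK cells, with 38.6 CPM in STK25 wKO-labelled and 37.1 CPM in WT-labelled epithelial cells and 36.4 CPM in STK25 wKO-labelled and 38.5 CPM in WT-labelled T or NK cells.

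**Figure D3:**
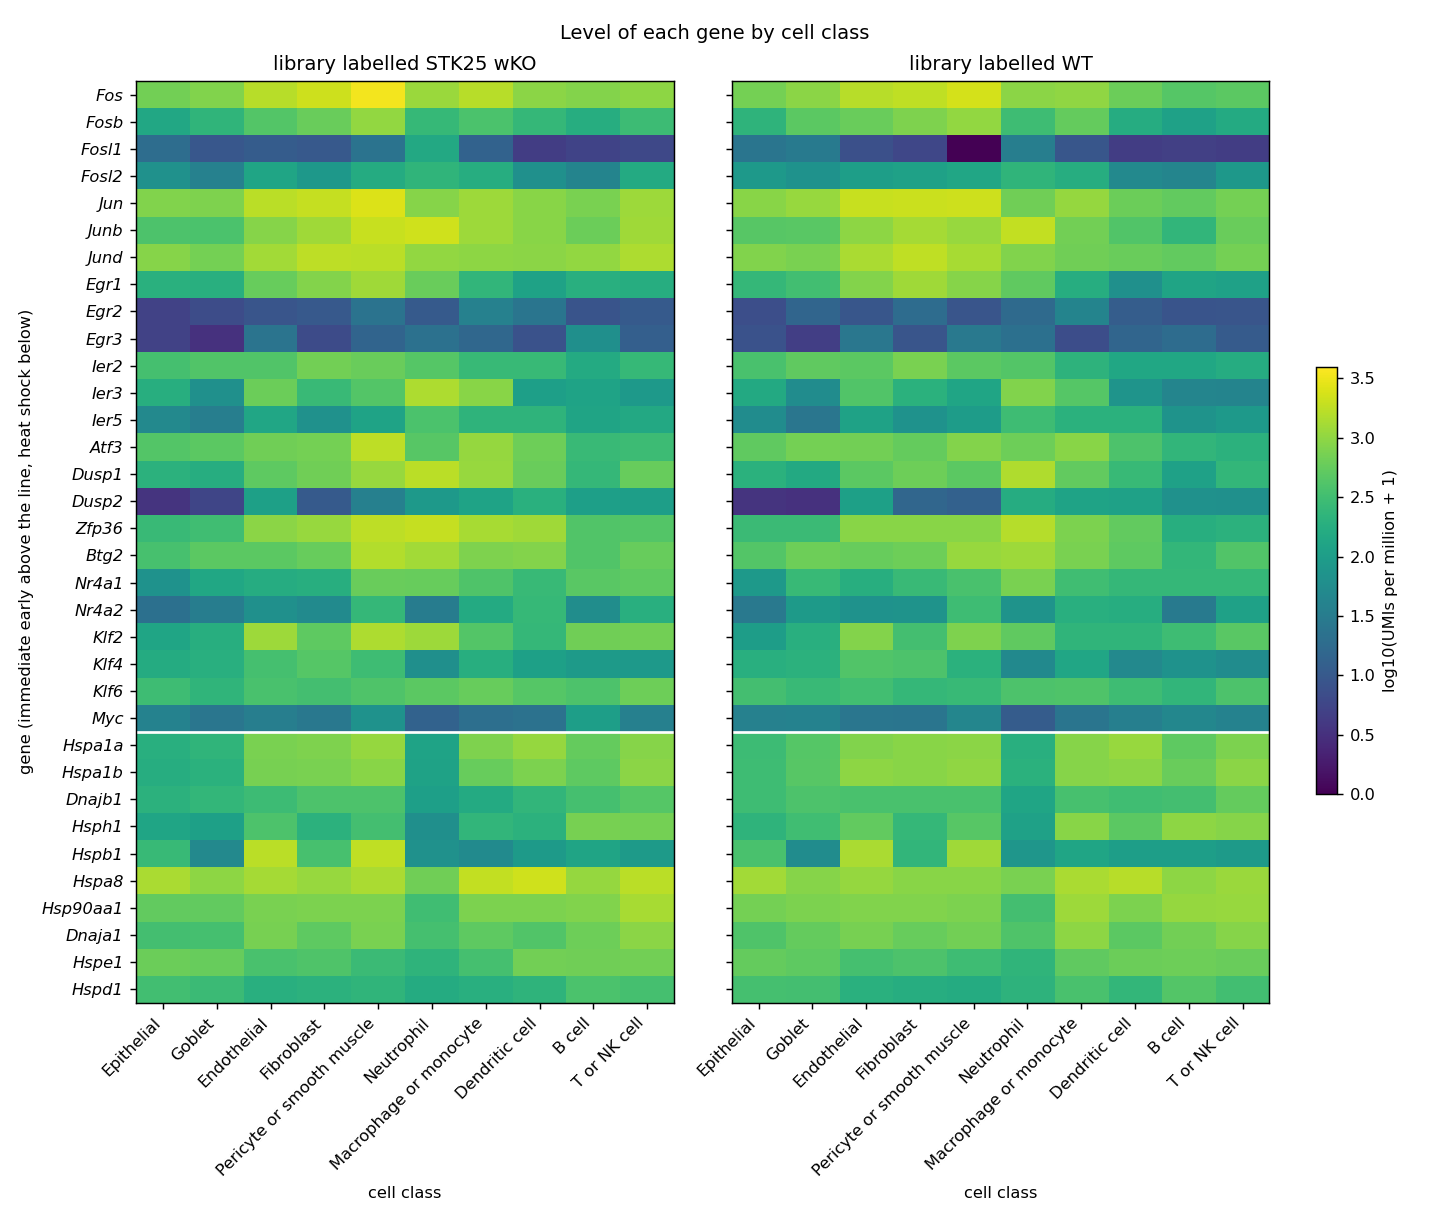
Level of each gene in the 10 classes as log10(CPM + 1), library labelled STK25 wKO on the left and library labelled WT on the right; the white line separates immediate early from heat shock genes. Several genes peak in the same class in both: Fos peaks in pericytes or smooth muscle cells (3415 and 2369 CPM), Junb in neutrophils (2199 and 1841 CPM), while Hspb1 is high in endothelial cells and pericytes or smooth muscle cells.

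The stress-inducible heat shock genes were lower with the STK25 wKO label in most classes. Summed over Hspa1a, Hspa1b, Dnajb1, Hsph1 and Hspb1, they were below 0 in 9 of 10 classes. The sum was 819.9 CPM in STK25 wKO-labelled and 1672 CPM in WT-labelled goblet cells (log2 ratio −1.03, −1.11 to −0.95). It was 1823 CPM in STK25 wKO-labelled and 3163 CPM in WT-labelled macrophages or monocytes (log2 ratio −0.79, −0.86 to −0.73), and 958 CPM in STK25 wKO-labelled and 1474 CPM in WT-labelled epithelial cells (log2 ratio −0.62, −0.64 to −0.60). In neutrophils the sum was 472 CPM with the STK25 wKO label and 703 CPM with the WT label (−0.58, −0.78 to −0.36), and in dendritic cells 2364 CPM with the STK25 wKO label and 2972 CPM with the WT label (−0.33, −0.42 to −0.25). Pericytes or smooth muscle cells were the exception, at 4495 CPM with the STK25 wKO label and 4012 CPM with the WT label (0.16, 0.06 to 0.27). In the unnamed clusters 11 and 12 the ratios were −0.72 and −0.65.

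Hsph1, the HSP110 nucleotide exchange factor of the HSP70 machine, was lower with the STK25 wKO label in all 10 classes, with every interval below 0. It was 236 CPM in STK25 wKO-labelled and 897 CPM in WT-labelled macrophages or monocytes (log2 ratio −1.92, −2.06 to −1.79). It was 112 CPM in STK25 wKO-labelled and 317 CPM in WT-labelled goblet cells (log2 ratio −1.503, −1.70 to −1.31), and 205 CPM in STK25 wKO-labelled and 496 CPM in WT-labelled dendritic cells (log2 ratio −1.28, −1.54 to −1.02). In epithelial cells it was 131 CPM with the STK25 wKO label and 222 CPM with the WT label (−0.76, −0.82 to −0.70). It was most abundant in B cells, at 729 CPM in STK25 wKO-labelled and 961 CPM in WT-labelled B cells, and T or NK cells had 714 CPM with the STK25 wKO label and 891 CPM with the WT label. The inducible HSP70 genes Hspa1a and Hspa1b, whose promoters differ at 3 of 250 bases, summed to 419 CPM in STK25 wKO-labelled and 909.8 CPM in WT-labelled goblet cells (log2 ratio −1.12, −1.23 to −1.01). They summed to 358 CPM in STK25 wKO-labelled and 591 CPM in WT-labelled epithelial cells (log2 ratio −0.72, −0.76 to −0.69). In macrophages or monocytes the sum was 1375 CPM with the STK25 wKO label and 1781 CPM with the WT label (−0.37, −0.45 to −0.30). T or NK cells had 1819 CPM with the STK25 wKO label and 1721 CPM with the WT label (0.08, 0.03 to 0.13). That sign was of the class only. Within T or NK clusters 13, 14 and 15 the pair was at −0.52, −0.22 and −0.38, each with an interval below 0. Taken singly, Hspa1b was below 0 in all 10 classes and Hspa1a in 7. Hspa1a made up 57.5% of the pair in STK25 wKO-labelled and 49.7% in WT-labelled macrophages or monocytes.

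Dnajb1, the HSP40 partner of inducible HSP70, was 159 CPM in STK25 wKO-labelled and 357 CPM in WT-labelled macrophages or monocytes (log2 ratio −1.16, −1.35 to −0.97). It was 203 CPM in STK25 wKO-labelled and 299 CPM in WT-labelled epithelial cells (log2 ratio −0.56, −0.61 to −0.51). It was nearly equal in fibroblasts, 398 CPM in STK25 wKO-labelled and 372 CPM in WT-labelled fibroblasts. Hspb1, the small heat shock protein HSP27 that binds unfolding proteins and actin, had a different distribution over cells. Its level was 1706 CPM in STK25 wKO-labelled and 1373 CPM in WT-labelled endothelial cells and 1802 CPM in STK25 wKO-labelled and 1236 CPM in WT-labelled pericytes or smooth muscle cells, and it was low in neutrophils and goblet cells in both libraries. It was higher with the STK25 wKO label in endothelial cells and in pericytes or smooth muscle cells. So it was in fibroblasts, at 355 CPM with the STK25 wKO label and 231 CPM with the WT label (0.62, 0.46 to 0.79). Macrophages or monocytes had less of it, at 52.3 CPM with the STK25 wKO label and 128 CPM with the WT label (−1.29, −1.61 to −0.96).

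The cytosolic chaperones that are abundant without stress differed from each other in direction. Hspa8, the constitutive HSP70, was higher with the STK25 wKO label in 9 of 10 classes. It was 2211 CPM in STK25 wKO-labelled and 1659 CPM in WT-labelled dendritic cells (log2 ratio 0.41, 0.31 to 0.51). It was 1663 CPM in STK25 wKO-labelled and 1135 CPM in WT-labelled T or NK cells (log2 ratio 0.55, 0.50 to 0.60), and 1405 CPM in STK25 wKO-labelled and 1254 CPM in WT-labelled epithelial cells (log2 ratio 0.16, 0.14 to 0.19). Within T or NK clusters 13, 14 and 15 Hspa8 was at 1766, 1246 and 1593 CPM with the STK25 wKO label. With the WT label it was at 1600, 1022 and 1226 CPM there. Neutrophils were the exception, at 666 CPM with the STK25 wKO label and 751 CPM with the WT label (−0.17, −0.37 to 0.03). Hsp90aa1, the stress-responsive HSP90, was lower in macrophages or monocytes, at 783 CPM with the STK25 wKO label and 1177 CPM with the WT label (−0.59, −0.69 to −0.49). Epithelial cells had 540.2 CPM with the STK25 wKO label and 712 CPM with the WT label (−0.40, −0.43 to −0.37). T or NK cells were the exception among the 10 classes in having more, 1338 CPM with the STK25 wKO label and 1119.8 CPM with the WT label (0.26, 0.20 to 0.31). That class held different clusters in the 2 libraries. Within cluster 13 Hspa8 was the 1 heat shock gene of 10 above 0, so Hsp90aa1 was below 0 there. Dnaja1, an HSP40 partner of Hspa8, was 508 CPM in STK25 wKO-labelled and 969 CPM in WT-labelled macrophages or monocytes (log2 ratio −0.93, −1.04 to −0.82). Set against Hspa8 in the same cells, Hsph1 stood at 12.8 UMIs per 100 UMIs of Hspa8 in STK25 wKO-labelled and 64.6 in WT-labelled macrophages or monocytes. It stood at 11.5 in STK25 wKO-labelled and 35.5 in WT-labelled goblet cells, and at 9.31 in STK25 wKO-labelled and 17.7 in WT-labelled epithelial cells. The ratio of Hsph1 to Hspa8 was lower with the STK25 wKO label in all 10 classes.

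The mitochondrial chaperonin pair, Hspd1 (HSP60) and its lid Hspe1 (HSP10), are neighbours on chromosome 1, transcribed away from each other. Together they were 527 CPM in STK25 wKO-labelled and 893 CPM in WT-labelled macrophages or monocytes (log2 ratio −0.76, −0.88 to −0.65), and outside that class their ratios lay between −0.20 and 0.13. Hspe1 was 608 CPM in STK25 wKO-labelled and 559 CPM in WT-labelled epithelial cells (log2 ratio 0.12, 0.09 to 0.15). Hspd1 was 183 CPM in STK25 wKO-labelled and 365 CPM in WT-labelled macrophages or monocytes (log2 ratio −0.995, −1.18 to −0.81), short of a ratio of −1 by less than its interval.

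Related genes outside the 34 were read from lists. Of 32 other early response genes, 28 of 31 tested were above 0 in T or NK cells, with a median of 0.55, and 7 were past a log2 ratio of 1 (50.1% and 3.73% of all genes). In B cells 22 of 27 were above 0 (median 0.44, 49.8% of all genes above 0), and in epithelial cells 9 of 32 (median −0.14, 37.5% of all genes). Among the most abundant were Nfkbia, the NF-κB inhibitor, at 1064 CPM in STK25 wKO-labelled and 342 CPM in WT-labelled T or NK cells (log2 ratio 1.64, 1.56 to 1.72), and Cebpb, an inflammatory transcription factor, at 195 CPM in STK25 wKO-labelled and 53.7 CPM in WT-labelled B cells (log2 ratio 1.86, 1.503 to 2.23). In epithelial cells Nfkbia was 238 CPM with the STK25 wKO label and 210.2 CPM with the WT label (0.18, 0.13 to 0.23). Phlda1 was 136 CPM in STK25 wKO-labelled and 51.6 CPM in WT-labelled endothelial cells (log2 ratio 1.39), and Mcl1, a survival gene, 989 CPM in STK25 wKO-labelled and 777 CPM in WT-labelled macrophages or monocytes (log2 ratio 0.35, 0.24 to 0.46). Nr4a3, the relative of Nr4a1, was past −1 in epithelial cells at low levels, 3.91 CPM in STK25 wKO-labelled and 7.85 CPM in WT-labelled epithelial cells.

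Of 32 other cytosolic heat shock genes, 12 of 32 tested were above 0 in epithelial cells (median −0.08) and 10 of 26 in macrophages or monocytes (median −0.08). These are near the background of all genes, of which 37.5% were above 0 in epithelial cells (median −0.13) and 43.2% in macrophages or monocytes (median −0.11). Of their abundant members, some were near equal in epithelial cells: Hsp90ab1, the constitutive HSP90, was 2423 CPM in STK25 wKO-labelled and 2410.5 CPM in WT-labelled epithelial cells, and Sqstm1, an autophagy receptor, 276 CPM in STK25 wKO-labelled and 294 CPM in WT-labelled epithelial cells. Ubb, a polyubiquitin gene, was at 1736 CPM with the STK25 wKO label and 1558 CPM with the WT label (0.16, 0.14 to 0.18) there. The HSP70 cofactor Bag3 and the HSP40 gene Dnaja4 were past −1 in macrophages or monocytes, Bag3 at 127 CPM with the STK25 wKO label and 507 CPM with the WT label (−1.995, −2.18 to −1.82). Dnaja4 was at 5.54 CPM with the STK25 wKO label and 51.5 CPM with the WT label (−3.22, −4.00 to −2.48). Both also passed −1 in goblet cells, with Bag3 at 126 CPM with the STK25 wKO label and 308 CPM with the WT label (−1.29, −1.48 to −1.10). These were named after their values were seen. Of 7 mitochondrial chaperones and proteases, 6 were above 0 in epithelial cells (median 0.11), against −0.13 for all genes. Their most abundant members were Hspa9, at 139 CPM in STK25 wKO-labelled and 129 CPM in WT-labelled epithelial cells, and Grpel1, at 119 CPM in STK25 wKO-labelled and 85.1 CPM in WT-labelled epithelial cells. Clpp was at 72.5 CPM in STK25 wKO-labelled and 59.1 CPM in WT-labelled epithelial cells, and Trap1 at 40.5 CPM in STK25 wKO-labelled and 38.8 CPM in WT-labelled epithelial cells.

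Classes are mixtures, so the sums were also read within the 18 clusters of named classes that held at least 50 cells of each library. The T or NK class came mainly from different clusters in the 2 libraries. Cluster 13, led by Il17a, Il23r, Ctla4 and Icos, held 953 of 1432 STK25 wKO-labelled cells and 828 of 3935 WT-labelled cells, while clusters 14 and 20 held 1444 and 1433 of the WT-labelled cells. Within cluster 13 the immediate early sum was 11166 CPM in STK25 wKO-labelled and 8530.4 CPM in WT-labelled cells (0.39, 0.36 to 0.42). Cluster 14, led by Lck and Skap1, had 6942 CPM in STK25 wKO-labelled and 4602 CPM in WT-labelled cells (0.59, 0.52 to 0.66). Cluster 15, led by Xcl1, Nkg7 and Ccl5, had 8339 CPM in STK25 wKO-labelled and 6656 CPM in WT-labelled cells (0.33, 0.26 to 0.39). With these 3 clusters weighted alike the ratio was 0.42, against 0.84 for the class. Ier3 was the single member past a ratio of 1 in cluster 13, at 82.4 CPM in STK25 wKO-labelled and 38.4 CPM in WT-labelled cells (1.10, 0.69 to 1.52), against 2.78% of all genes. The heat shock sum changed sign with the same weighting, to −0.20 against 0.13 for the class. In cluster 13 it was 8703 CPM in STK25 wKO-labelled and 11125 CPM in WT-labelled cells (−0.35, −0.38 to −0.32). Hsph1 was at 745 CPM in STK25 wKO-labelled and 1484 CPM in WT-labelled cells (−0.99, −1.09 to −0.90) there.

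Endothelial and fibroblast clusters differed within their classes. In cluster 16, led by Mmrn1, Ccl21a and Lyve1, the immediate early sum was 8969 CPM in STK25 wKO-labelled and 13569 CPM in WT-labelled cells (−0.60, −0.65 to −0.55). Egr1 was at 416 CPM in STK25 wKO-labelled and 1023 CPM in WT-labelled cells (−1.299, −1.51 to −1.09) there. In cluster 19, led by Selp, Flt1 and Plvap, the immediate early sum was 14309 CPM in STK25 wKO-labelled and 12979 CPM in WT-labelled cells (0.14, 0.11 to 0.18). Egr1 was at 647 CPM in STK25 wKO-labelled and 733 CPM in WT-labelled cells of cluster 19. Fibroblasts of cluster 1, led by Adamdec1 and Tcf21, had 13745 CPM in STK25 wKO-labelled and 17016 CPM in WT-labelled cells (−0.31, −0.34 to −0.27), with Fosb at 393 CPM in STK25 wKO-labelled and 959.7 CPM in WT-labelled cells (−1.29, −1.47 to −1.10). Those of cluster 2, led by Myoc, Lum and Dcn, had 14380.5 CPM in STK25 wKO-labelled and 12447 CPM in WT-labelled cells (0.21, 0.18 to 0.24), with Fosb at 711 CPM in STK25 wKO-labelled and 695 CPM in WT-labelled cells (0.03, −0.10 to 0.16). The ratios near 0 of these classes were thus means over clusters of opposite sign. Whether the 2 clusters of each class differ was not tested.

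In epithelial clusters the immediate early ratios lay between −0.20 and 0.15, and all 5 heat shock ratios lay between −0.32 and −0.21. Cluster 6, led by Ly6m, Clca4b and Ly6d, had the lowest heat shock level of the 5, and its stress-inducible genes were 444 CPM in STK25 wKO-labelled and 892 CPM in WT-labelled cells (−1.005, −1.06 to −0.94). Hspa1b was at 91.4 CPM in STK25 wKO-labelled and 249 CPM in WT-labelled cells (−1.45, −1.57 to −1.32) there, while Hspa8 was at 1118 CPM in STK25 wKO-labelled and 861 CPM in WT-labelled cells (0.38, 0.33 to 0.43). In cluster 5, led by the mitotic genes Cdc20 and Ccnb2, the heat shock sum was 4602 CPM in STK25 wKO-labelled and 5429.5 CPM in WT-labelled cells (−0.24, −0.26 to −0.22). Median mitochondrial shares differed between libraries in some of these clusters, at 5.64% in STK25 wKO-labelled and 8.42% in WT-labelled cells of cluster 6, and the part of this in the ratios was not tested.

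**Figure D4:**
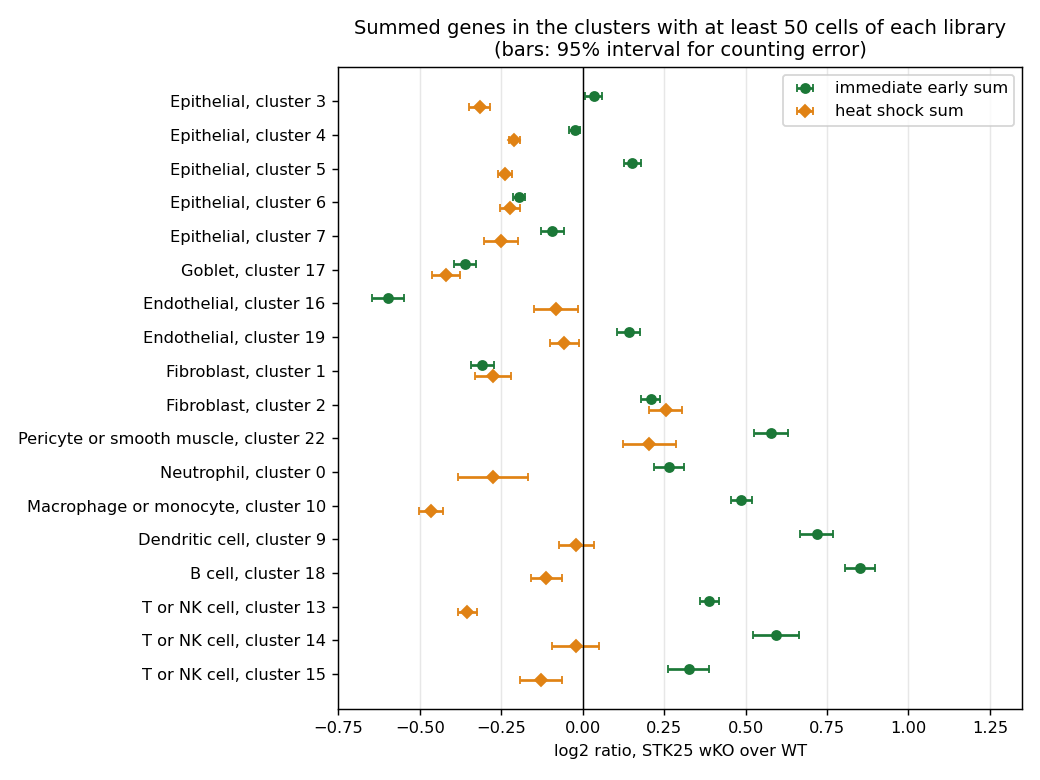
Log2 ratio (STK25 wKO over WT) of the immediate early sum (green circles) and the heat shock sum (orange diamonds) in each cluster of a named class with at least 50 cells of both libraries; bars are 95% intervals for counting error. Lymphoid and myeloid clusters lie to the right of 0 for the immediate early sum, endothelial clusters 16 and 19 lie on either side (−0.60 and 0.14), and all 5 epithelial clusters lie to the left for the heat shock sum.

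Per cell, after every cell was thinned to 1000 UMIs, T or NK cells had a median of 8 immediate early UMIs with the STK25 wKO label (quartiles 5 and 13) and 4 with the WT label (2 and 7). Left out as shallower were 160 STK25 wKO-labelled and 930 WT-labelled T or NK cells. B cells had medians of 7 and 4, but there 224 of 671 STK25 wKO-labelled and 963 of 1685 WT-labelled cells were left out. Neutrophils had the highest medians, 15 with the STK25 wKO label and 11 with the WT label, and pericytes or smooth muscle cells the widest spread, with quartiles of 7 and 29.75 with the STK25 wKO label and 4 and 22.25 with the WT label. Epithelial cells had a median of 4 in both libraries. Heat shock medians were closer, at 2 in STK25 wKO-labelled and 3 in WT-labelled epithelial cells, 4 and 5 in macrophages or monocytes and 6 and 5 in T or NK cells. The quartile ranges of the libraries overlapped in every class for both sums.

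**Figure D5:**
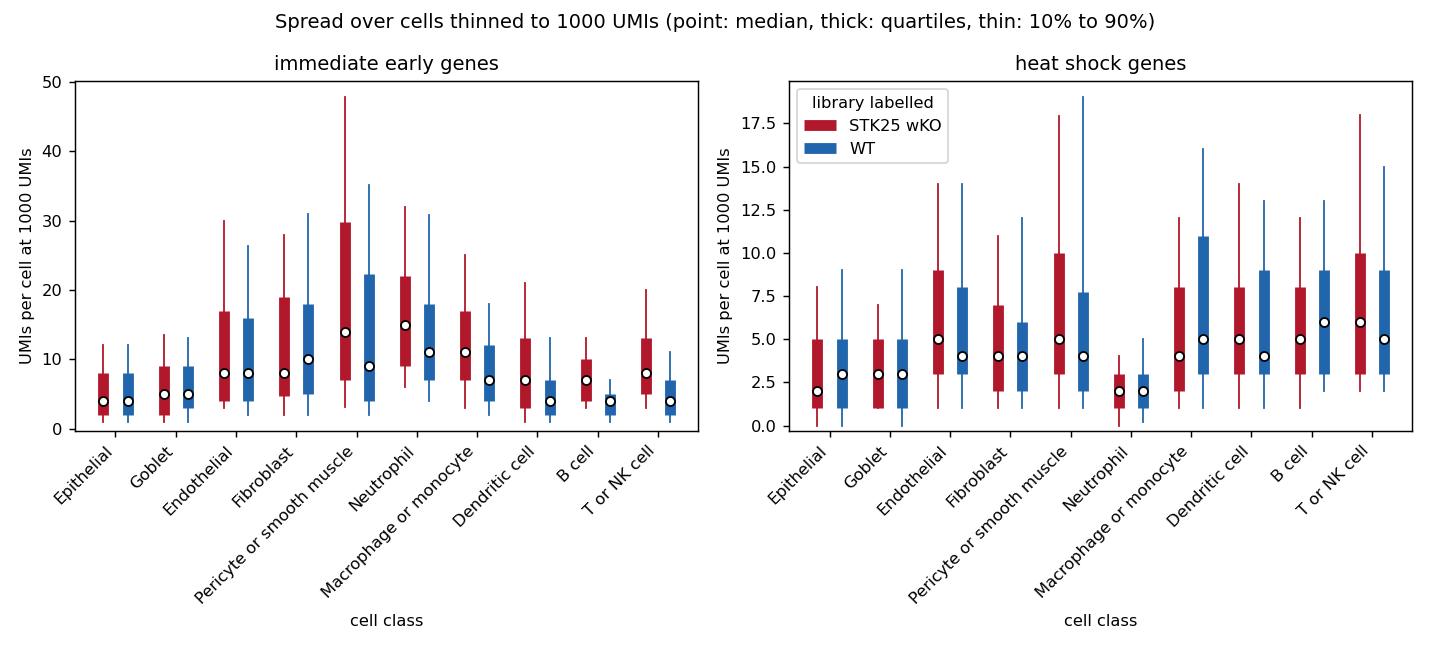
UMIs of the immediate early genes (left) and heat shock genes (right) per cell thinned to 1000 UMIs, by class, red for the library labelled STK25 wKO and blue for the library labelled WT. Points are medians, thick bars quartiles and thin lines the range from 10% to 90% of cells; T or NK cells have immediate early medians of 8 and 4, and goblet cells have heat shock medians of 3 in both.

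Over single thinned cells, cells with more immediate early UMIs tended to have more heat shock UMIs in most classes. As descriptions, Spearman's rho was 0.64 over 675 STK25 wKO-labelled and 0.55 over 357 WT-labelled endothelial cells, and 0.53 over 684 STK25 wKO-labelled and 0.45 over 549 WT-labelled fibroblasts. Dendritic cells had 0.44 over 140 STK25 wKO-labelled and 0.50 over 183 WT-labelled cells, T or NK cells 0.38 over 1272 and 0.43 over 3005, and goblet cells 0.40 over 466 and 0.39 over 168. It was 0.21 over 4242 STK25 wKO-labelled and 0.24 over 2225 WT-labelled epithelial cells, and close to 0 in neutrophils, at −0.09 over 1378 STK25 wKO-labelled and −0.05 over 133 WT-labelled cells. The cells of a class share a library, and depth is correlated with the sums too: rho of the immediate early sum with the UMIs of the cell before thinning was 0.34 in STK25 wKO-labelled and 0.30 in WT-labelled fibroblasts.

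Because the libraries held different mixes of cells, the level over all cells was also computed with the class shares of the 2 libraries averaged. Over all cells the immediate early sum was 7829.7 CPM with the STK25 wKO label and 6829 CPM with the WT label (0.20), and with the averaged shares 7752 and 7172 CPM in the same order (0.11). The heat shock sum was 4492 CPM with the STK25 wKO label and 5472 CPM with the WT label (−0.28), and with the averaged shares 4790.5 and 5289 CPM (−0.14).

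Markers of other cell types moved with some of these results, and their part in single genes was not tested. The 8 neutrophil markers stood at 108335 CPM in STK25 wKO-labelled and 18162 CPM in WT-labelled neutrophils, so the class itself differed between libraries. They summed to 1573 CPM in STK25 wKO-labelled and 156 CPM in WT-labelled T or NK cells, and to 2063 and 190 CPM in B cells, which is 1.90% and 1.04% of the level in neutrophils of the same library. In T or NK cells these shares were 1.45% and 0.858%, and all 8 markers had UMIs there in both libraries. In pericytes or smooth muscle cells they summed to 3537 CPM with the STK25 wKO label (3.26% of the neutrophil level) and 112 CPM with the WT label (0.615%), with UMIs for 8 and 4 of the 8 markers. With a matching share of the neutrophil profile taken off, the immediate early ratios were 0.85 in T or NK cells, 0.85 in B cells and 0.59 in pericytes or smooth muscle cells. The 13 epithelial markers stood at 19.9% of their epithelial level in STK25 wKO-labelled and 15.9% in WT-labelled T or NK cells, and at 25.2% and 22.6% in B cells. With that share of the epithelial profile taken off, the ratios were 1.02 in T or NK cells and 1.20 in B cells. In macrophages or monocytes the heat shock ratio was −0.47 after the neutrophil and −0.48 after the epithelial subtraction.

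Across the 20 points formed by 10 classes in 2 libraries, the members most alike in log2(CPM + 1) were Hspa1a and Hspa1b (Pearson's r 0.98), Dusp1 and Junb (0.95), Zfp36 and Dusp1 (0.93) and Jun and Fos (0.93). Outside the members and lists, of 5751 genes searched, the immediate early sum was most like Mir22hg (0.81), Tnfrsf1a (0.81), Map1lc3b (0.77), Pnrc1 (0.76) and Morrbid (0.75). The heat shock sum was most like Arl5a (0.91), Med27 (0.89), Esyt1 (0.88), Krit1 (0.87) and Cers5 (0.87). The points share libraries and depth, so these are descriptions with no test.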

How the data were processed

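Droplet 3′ single-cell RNA sequencing was done on 1 library labelled STK25 wKO and 1 labelled WT. Per the file headers, the authors made the deposited count matrices with Cell Ranger 7.1.0, giving whole-number UMI counts per gene and cell with no normalization. The submitters' processing notes also name mm10 and Seurat, with no role given. The kit version was not settled by the labels. The matrices held 14168 barcodes and 66297749 UMIs (STK25 wKO) and 12542 barcodes and 38737373 UMIs (WT), with at least 500 UMIs a barcode.

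Barcodes were dropped below 200 detected genes (3 STK25 wKO, 2 WT) or above a mitochondrial share of 25% (282 and 270). The remaining cells were scaled to 10000 UMIs, and clustered in scanpy 1.11.5 with leidenalg 0.10.2 (2000 variable genes, from which members and lists were left out, 30 components, 20 neighbours, resolution 1) in Python 3.11.15 with numpy 2.4.6 and scipy 1.17.1. A cluster was named where at least 3 markers of a type were in at least 10% of cells and at least 5 points above the median cluster; these limits were set after seeing the data. Scrublet's own threshold called 0 doublets, so none were removed in the main values, and 1542 and 1204 cells were left out in an alternative.

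UMIs were summed per library and class and given as CPM. With 1 library per group no test was made; intervals are exact at 95%. A gene was counted as higher or lower at a log2 ratio of at least 1 with at least 50 UMIs over both libraries. All 34 members are named, with the 4 genes of most UMIs in each other list and those past that ratio in epithelial cells, and the 5 genes most alike each sum. Of the genes this rule names, 1 is not reported here. The members and lists were chosen with earlier results of these data known. Only the ratios and their intervals were tested on simulated counts, which held no added spread between cells. Alternatives were other filters, clusterings, doublet removal, weightings, class mixes, thinning and leaving out single genes. Cluster weighting and subtraction of other cells' RNA were added after seeing the data.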

Additional observations from a re-analysis of the deposited data

Results flagged for a closer look

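In the following pairs the ratios of STK25 wKO over WT lay on opposite sides of 0, with both intervals clear of 0. The difference was not tested in any of them, since each rests on 1 library per group. The immediate early sum was at 0.14 in endothelial cluster 19 and −0.60 in endothelial cluster 16. It was at 0.15 in epithelial cluster 5 and −0.20 in epithelial cluster 6. In fibroblasts it was at 0.21 in cluster 2 and −0.31 in cluster 1. Between classes it was at 0.85 in B cells and −0.36 in goblet cells. The heat shock sum was at 0.25 in fibroblast cluster 2 and −0.28 in fibroblast cluster 1. Between classes it was at 0.20 in pericytes or smooth muscle cells and −0.47 in macrophages or monocytes.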

How the results depend on the processing

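No paired analysis was possible because each group had 1 library. Of 64 alternatives for the leading sums, 38 moved the ratio by less than its counting interval, 26 moved it further and none changed its sign. The immediate early ratio of T or NK cells (0.84) was 0.89 as a mean over cells, 0.87 in thinned cells, 1.02 with epithelial RNA subtracted and 0.42 with clusters weighted alike. That of B cells (0.85) was 0.79 under the strict filter (at least 500 genes, at most 10% mitochondrial), 0.79 as a mean over cells, 0.90 without Jun, 1.20 with epithelial RNA subtracted and 0.71 with its clusters of resolution 2 weighted alike. That of macrophages or monocytes (0.49) was 0.53 with doublets removed, 0.54 as a mean over cells, 0.53 without Jun, 0.54 with epithelial RNA subtracted and 0.33 with its clusters of resolution 2 weighted alike. At resolution 0.5 it was 0.72, but of a wider class of 1208 STK25 wKO-labelled and 505 WT-labelled cells. The dendritic marker Flt3 was among its leading genes, and dendritic cells formed no class of their own there. The heat shock ratio of epithelial cells (−0.19) was −0.23 under the strict filter, −0.21 with doublets removed, −0.13 as a mean over cells, −0.16 thinned, −0.20 with mitochondrial UMIs left out, −0.34 without Hspa8 and −0.24 with clusters weighted alike. That of macrophages or monocytes (−0.47) was −0.33 in the same wider class at resolution 0.5, −0.38 as a mean over cells, −0.39 thinned and −0.77 without Hspa8. Over all cells the immediate early ratio (0.20) was 0.059 at the STK25 wKO mix of classes and 0.17 at the WT mix, and the heat shock ratio (−0.28) was −0.19 and −0.10.

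Of 202 alternatives for the other values, 23 changed the sign. Of these, 17 were ratios whose interval included 0 (immediate early in fibroblasts, heat shock in dendritic cells, endothelial cells and fibroblasts), and 6 were not. Of the 6, the immediate early ratio became 0.035 as a mean over cells and 0.038 thinned in epithelial cells, 0.0016 as a mean over cells in goblet cells, and 0.17 as a mean over cells and 0.087 thinned in endothelial cells. The heat shock ratio of T or NK cells became −0.20 with clusters weighted alike. That of B cells (−0.11) was −0.20 with its clusters of resolution 2 weighted alike. The cause was not tested. Dendritic cells did not form a class at resolution 0.5. Depth limited Egr2, Egr3, Fosl1 and Myc most, and with 1 library per group no value says how far mice or preparations vary.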
